A study of Caenorhabditis elegans with 24 samples.

Results

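T22F3.11 and adh-1 are a pair of Caenorhabditis elegans genes with some of the highest fasted over fed ratios in a series of whole-worm expression arrays. They were chosen by name, with that difference known, and are read here by every probe set that the array annotation assigns to 1 of them alone. These are 3 of 22625 probe sets, for 2 of 17118 genes: 173729_at and 184913_s_at for T22F3.11, and 190978_at for adh-1 (locus K12G11.3). Wild-type N2 worms were grown at 20 °C on bacteria that carry a control, Rheb (rheb-1) or TOR (let-363) sequence for RNA interference (RNAi), by which eaten double-stranded RNA lowers the matching transcript. On every plate type some worms had food without limit and others went without it for 48 h, with collection at day 4 of adulthood. The 24 arrays, 1 per worm sample, are 5 fed and 5 fasted on control RNAi, 4 and 4 on Rheb RNAi, and 3 and 3 on TOR RNAi. Every group is of the N2 strain and was grown on RNAi bacteria, controls included, which the fasted groups lacked during the 48 h.

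TOR is the kinase that couples nutrient supply to growth, and Rheb is a small GTPase that activates it. Alcohol dehydrogenases, of which adh-1 is one by name, pass hydrogen between alcohols and NAD, turning an alcohol into an aldehyde or ketone. Aldehyde dehydrogenases can carry the product on to a carboxylic acid, and worms take up alcohols with their bacterial food. T22F3.11 carries a sequence name without a gene name, and no role is assigned to it here.

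Array medians lay between 46.9 and 58.0 intensity units, and the number of arrays limits the precision of every value. Levels below are log2 GCRMA intensities with their standard deviation (SD) over arrays, and a difference is that of 2 group means on the log2 scale, with limma's standard error (SE). A gene was called where limma's Benjamini-Hochberg adjusted p over the 12277 genes tested was under 0.05. The fit did not pair arrays by replicate number. The targets were lower on their plates: on TOR RNAi, let-363 differed from control by -1.45 ± 0.14 with food and -1.44 ± 0.14 without (limma's adjusted p = 1.3e-07 and 1.4e-07). On Rheb RNAi, the dimmer rheb-1 probe set differed by -2.55 ± 0.29 with food and -1.85 ± 0.29 without (limma's adjusted p = 8.5e-07 and 5.4e-05). The brighter one differed by -0.30 and -0.50 and was not called (limma's adjusted p = 0.35 and 0.15). In RNA of whole worms, a change in RNA per cell cannot be told apart from a change in how many cells express the gene.

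T22F3.11 gave a dim signal, near a log2 value of 4, in fed worms and a higher one after fasting on every plate. By probe set 173729_at, which stands for the gene in the gene-level fit because it is the brighter of the pair, the fed control arrays read 5.22, 4.44, 5.36, 3.88 and 4.41. The fasted control arrays read 9.23, 9.39, 10.60, 11.85 and 12.53. The lowest fasted array thus lay well above the highest fed one, and the fasted arrays spanned a 9.87-fold range of intensity among themselves.

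On Rheb RNAi plates, T22F3.11 read 4.59, 4.21, 3.92 and 3.66 in fed worms. In fasted worms it read 7.38, 9.01, 6.08 and 10.16. All 4 fasted arrays were above the fed ones, and the range among them was 16.9-fold. On TOR RNAi plates, the fed arrays read 3.88, 5.42 and 4.00, and the fasted arrays 10.97, 11.58 and 11.84. These fasted arrays were close together, within a 1.82-fold range.

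The order of the T22F3.11 group means was the 3 fed groups, then fasted Rheb RNAi, fasted control and fasted TOR RNAi worms. The fed means were 4.10 ± 0.40 (SD, n = 4) on Rheb RNAi, 4.43 ± 0.86 (SD, n = 3) on TOR RNAi and 4.66 ± 0.62 (SD, n = 5) on control plates, with overlapping arrays. The fasted means were 8.16 ± 1.79 (SD, n = 4), 10.72 ± 1.46 (SD, n = 5) and 11.46 ± 0.45 (SD, n = 3) on Rheb, control and TOR RNAi, and each of these groups overlapped the next. The only gap between neighbours in that order was between fed control and fasted Rheb RNAi worms.

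The second T22F3.11 probe set, 184913_s_at, also read higher in fasted than in fed worms on every plate, at a lower level. Its fed arrays all lay between 1.87 and 3.64, below the value of 4 under which signals were treated as dim. Fasted means were 9.47 ± 1.21 (SD, n = 5) on control, 6.49 ± 1.82 (SD, n = 4) on Rheb and 9.59 ± 0.27 (SD, n = 3) on TOR RNAi. Those on control and TOR RNAi were thus close. Rheb fasted replicate 3 read 4.12, just above the dim range. Its name ends in _s_at, the array maker's mark for probes that may match more than 1 transcript.

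adh-1 was well above the dim range in every worm sample, fed or fasted. The fed control arrays read 7.85, 8.21, 7.60, 8.69 and 9.57, and the fasted ones 13.48, 13.41, 14.01, 13.96 and 13.50. The fasted control arrays agreed to within a 1.52-fold range of intensity. On Rheb RNAi plates, adh-1 read 7.20, 7.25, 8.32 and 9.40 in fed worms and 10.67, 11.12, 11.12 and 12.21 in fasted worms. On TOR RNAi plates, it read 8.45, 9.89 and 10.76 in fed worms and 12.11, 12.40 and 12.14 in fasted worms. The fasted arrays were above the fed arrays on each plate, and the highest fed array on TOR RNAi was just above the lowest fasted array on Rheb RNAi.

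The order of the adh-1 group means differed from that of T22F3.11, with fasted control worms on top. The means were 8.05 ± 1.04 (SD, n = 4) in fed Rheb RNAi, 8.38 ± 0.78 (SD, n = 5) in fed control and 9.70 ± 1.17 (SD, n = 3) in TOR RNAi worms with food. They were 11.28 ± 0.65 (SD, n = 4) in fasted Rheb RNAi, 12.22 ± 0.16 (SD, n = 3) in fasted TOR RNAi and 13.67 ± 0.29 (SD, n = 5) in fasted control worms. Each group overlapped the next in this order except that fasted control arrays all lay above fasted TOR RNAi arrays.

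**Figure D1:**
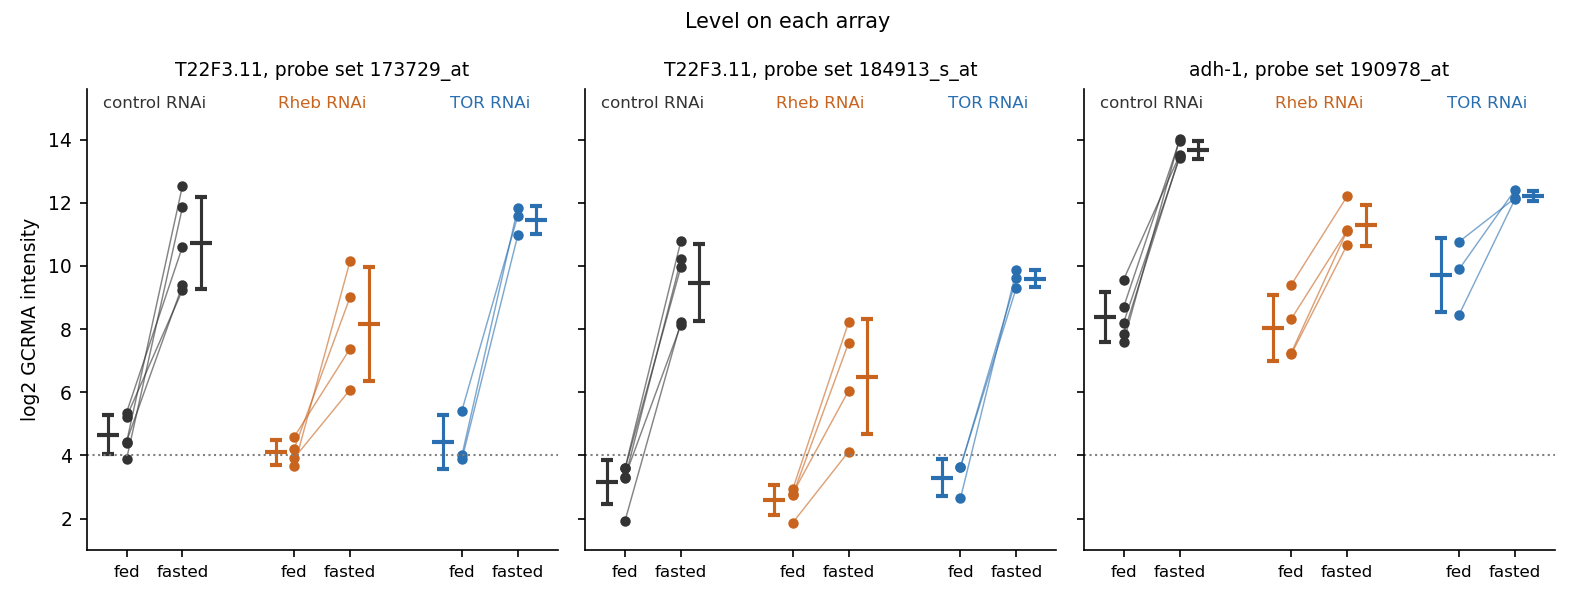
Log2 GCRMA intensity of the 3 probe sets on each array, fed and fasted, by RNAi plate; lines join arrays of the same replicate number, bars show the group mean ± SD, and the dotted line marks log2 4. Fasted arrays lie above fed arrays on every plate for all 3 probe sets; T22F3.11 is spread widely in fasted control and Rheb RNAi worms, and adh-1 in fed worms.

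The fasted minus fed differences are given as descriptions with no test, since the genes were chosen by them. In control worms T22F3.11 differed by 6.06 ± 0.63 (SE), a 66.8-fold ratio, and adh-1 by 5.29 ± 0.43, a 39.2-fold ratio. They ranked 2 and 3 of the 12277 genes, with acs-2, an acyl-CoA synthetase gene, above them at 6.78. The size of these differences is uncommon, since among genes called higher 379 were so by more than 1 on the log2 scale, 47 by more than 2, 19 by more than 3 and 3 by more than 5.

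On Rheb RNAi, T22F3.11 differed by 4.06 ± 0.71 (16.7-fold, rank 1) and adh-1 by 3.23 ± 0.48 (9.41-fold, rank 2). On TOR RNAi, T22F3.11 differed by 7.03 ± 0.82 (131-fold, rank 1) and adh-1 by 2.52 ± 0.56 (5.72-fold, rank 13). Both genes had fasted above fed arrays without overlap on all 3 plates, as 0.847% of tested genes did. Past limma's threshold in the higher direction were 11% of genes in control, 3.23% in Rheb RNAi and 1.08% in TOR RNAi worms, which is background only, as nothing is read from the members' own calls there.

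Because fed T22F3.11 is near the dim range, its ratio depends on how dim values are treated, and more so for the second probe set. By 184913_s_at as deposited, fasted minus fed was 6.32 ± 0.59, 3.91 ± 0.66 and 6.29 ± 0.77 on control, Rheb and TOR RNAi. With values below 4 set to 4 these became at least 44.3-fold, 5.62-fold and 48.2-fold. For 173729_at the same floor left the differences at 6.04, 3.96 and 6.99.

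Arrays of the same replicate number allow a closer look at how even the difference was. For T22F3.11 the same-number fasted minus fed differences were 4.01, 4.95, 5.25, 7.97 and 8.13 on control plates. They were 2.79, 4.80, 2.17 and 6.50 on Rheb RNAi and 7.09, 6.16 and 7.84 on TOR RNAi. The Rheb and control ranges overlap, while both exceed a 4-fold ratio at every number. For adh-1 they were 5.63, 5.21, 6.42, 5.27 and 3.94 on control, 3.47, 3.87, 2.80 and 2.80 on Rheb RNAi and 3.66, 2.51 and 1.38 on TOR RNAi. No adh-1 difference under either knockdown reached the lowest control one.

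How far the difference persisted under each knockdown was expressed as a share of the control log2 difference. Under Rheb RNAi both genes kept much the same share, 67.0% for T22F3.11 and 61.1% for adh-1. Under TOR RNAi they parted, with 116% for T22F3.11 and 47.5% for adh-1. The 47 genes called higher in fasted control worms, by over 4-fold and with members included, kept a median of 33.4% under Rheb RNAi, with quartiles of 9.54% and 50.5%. On this scale 5 of these genes kept a larger share than T22F3.11 and 7 a larger one than adh-1. Under TOR RNAi their median was 39.9%, with quartiles of 18.5% and 59.9%. There 1 gene, C23G10.11 at 127%, kept a larger share than T22F3.11, while 20 genes kept a larger share than adh-1 and 26 a smaller one. Since all 47 were picked for a large control difference, smaller ones elsewhere follow in part from the choice; how much was not tested.

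The share, and the standing of both genes among the 47, depend on the scale. As a ratio of linear folds, Rheb RNAi left 25% for T22F3.11 and 24% for adh-1, and TOR RNAi 196% and 14.6%. As a gain in mean intensity, Rheb RNAi left 18.5% and 18.4%, and TOR RNAi 117% and 29.2%. By linear folds the medians of the 47 genes were 25% and 33.8% under Rheb and TOR RNAi. Under Rheb RNAi 23 genes then kept a larger share than T22F3.11 and 25 a larger one than adh-1, and under TOR RNAi 0 and 41 did. By gain in intensity, with medians of 19.6% and 43.4%, 24 and 25 genes kept more under Rheb RNAi and 6 and 28 under TOR RNAi. The standing above most of these genes under Rheb RNAi thus holds on the log2 scale only. The second T22F3.11 probe set kept 61.8% and 99.5% on the log2 scale and 18.8% and 97.9% by linear folds under Rheb and TOR RNAi. On each of the 3 scales the pair lay close together under Rheb RNAi and apart under TOR RNAi.

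**Figure D2:**
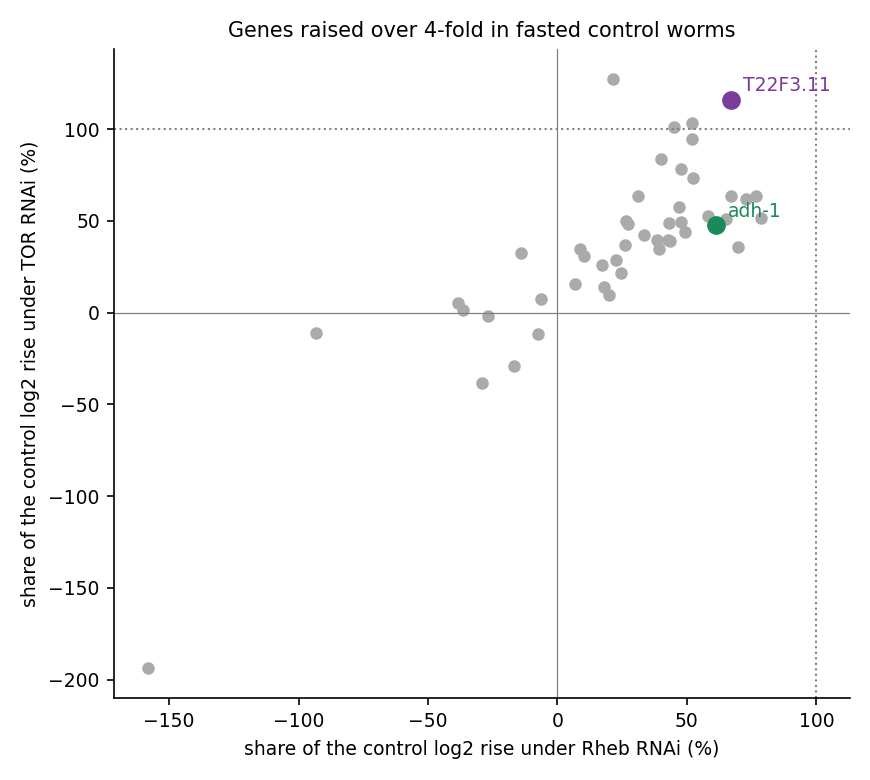
Share of the control log2 difference between fasted and fed worms that was present under Rheb RNAi (x axis, percent) and under TOR RNAi (y axis, percent), 1 point per gene for the 47 genes called higher, by over 4-fold, in fasted control worms. T22F3.11 lies at 67.0% and 116%, adh-1 at 61.1% and 47.5%; dotted lines mark 100%.

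Differences between plates were tested in 7 comparisons. Those that involve control worms share the control arrays by which the genes were chosen, and a choice for high fasted and low fed control levels favours lower fasted and higher fed values on the other plates. The differences of TOR from Rheb RNAi contain none of these arrays, but limma's estimate of the spread does. The rises on both knockdown plates were also in view when the genes were chosen. In fasted worms both genes were lower on Rheb RNAi than on control plates. T22F3.11 fell by 2.56 ± 0.67 (95% interval -3.96 to -1.17), 5.90-fold lower, with limma's adjusted p = 0.0091. Its groups overlapped, and without Rheb fasted replicate 3, the lowest array, the difference was -1.87 and no longer called (limma's adjusted p = 0.058). The second probe set differed by -2.98 ± 0.63 (limma's adjusted p = 0.0016).

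adh-1 was 5.26-fold lower in fasted Rheb RNAi than in fasted control worms, a difference of -2.39 ± 0.46 (95% interval -3.34 to -1.44) with limma's adjusted p = 0.00056 and no overlap. These 2 calls are in the direction that the choice of the genes favours, and 9.04% of all genes were called lower in that comparison. Groups without overlap in that direction were found for 7.19%. By matched numbers, fasted Rheb RNAi minus fasted control was -2.80, -2.30, -2.89 and -1.76 for adh-1. For T22F3.11 it was -1.85, -0.37, -4.52 and -1.69, lower at every number but uneven.

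In fasted TOR RNAi worms only adh-1 was called lower than in control worms, a direction that the choice of the genes favours. Its p is thus not independent of that choice. adh-1 was 2.75-fold lower, by -1.46 ± 0.50 (95% interval -2.49 to -0.42), with limma's adjusted p = 0.036 and no overlap. In that comparison 10.2% of genes were called lower, and 11.1% were lower without overlap. The call was lost without any 1 TOR fasted array (highest limma's adjusted p 0.098) or control fasted replicate 3 or 4. T22F3.11 differed by 0.74 ± 0.73 (95% interval -0.78 to 2.26, limma's adjusted p = 0.48), an interval that runs from a small fall to a rise of over 4-fold. By the second probe set the difference was 0.12 ± 0.68 (limma's adjusted p = 0.92).

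The knockdowns differed from each other for fasted T22F3.11. It was 9.88-fold higher on TOR than on Rheb RNAi plates, by 3.30 ± 0.77 (95% interval 1.72 to 4.89), with limma's adjusted p = 0.014 and no overlap. The rises on both plates were in view when the genes were chosen, so this p is not independent of that choice. Only 2.71% of genes were called higher there, 9.51% were higher without overlap, and T22F3.11 ranked 3 of 12277 by size. The second probe set gave 3.10 ± 0.72 (limma's adjusted p = 0.015). The call was lost without Rheb fasted replicate 1 (3.05, limma's adjusted p = 0.055), without TOR fasted replicate 2 (3.25, 0.069) or without TOR fasted replicate 3 (3.12, 0.075). Fasted adh-1 differed by 0.94 ± 0.52 (95% interval -0.14 to 2.02, limma's adjusted p = 0.32). Whether the pair of genes differ from each other in their response to TOR RNAi was not tested.

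In fed worms T22F3.11 was not called in any comparison of plates. It differed by -0.56 ± 0.67 between Rheb RNAi and control, by -0.23 ± 0.73 between TOR RNAi and control and by 0.34 ± 0.77 between TOR and Rheb RNAi (limma's adjusted p = 0.56, 0.83 and 0.84). Fed adh-1 was 2.50-fold higher on TOR RNAi than on control plates, by 1.32 ± 0.50 (95% interval 0.29 to 2.35), with limma's adjusted p = 0.046 and overlapping arrays. Here 19.9% of all genes were called higher, and the choice of the genes favours this direction. The call was lost without TOR fed replicate 3 (0.79, limma's adjusted p = 0.31) or 2, without control fed replicate 1, 2 or 3, and, with the adjusted p at 0.050 to 0.052, without control fasted replicate 1, 2, 3 or 4, Rheb fasted replicate 2 or 3 or any TOR fasted array. Fed adh-1 on Rheb RNAi differed from control by -0.34 ± 0.46 (limma's adjusted p = 0.62). Between TOR and Rheb RNAi, where 5.64% of genes were called, it differed by 1.66 ± 0.52 (limma's adjusted p = 0.065), and was called without control fed replicate 5, Rheb fed replicate 4 or TOR fed replicate 1 (1.66, 2.11 and 2.28, limma's adjusted p = 0.047, 0.016 and 0.018).

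The fasting response itself can be set side by side between plates. Against control plates this is a description with no test, since it subtracts the control difference by which the genes were chosen, and that choice favours a lower value. For adh-1 the TOR RNAi response less the control response was -2.78 ± 0.71 (95% interval -4.24 to -1.31), the sum of a fed level higher by 1.32 and a fasted level lower by 1.46. Leaving out 1 array at a time gave -3.40 to -2.25. The adh-1 response on Rheb RNAi less that on control plates was -2.06 ± 0.65 (95% interval -3.40 to -0.71).

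For T22F3.11 the TOR RNAi response less the control response was 0.97 ± 1.04 (95% interval -1.18 to 3.12), and -0.03 ± 0.97 by the second probe set. It moved to 0.60 without control fasted replicate 1 and to 1.46 without TOR fed replicate 2. The Rheb RNAi response less the control response was -2.0 ± 0.95 (95% interval -3.97 to -0.02), and -2.41 ± 0.89 by the second probe set. Without Rheb fasted replicate 3 it was -1.31. Between TOR and Rheb RNAi, with no control array in the difference, the responses differed by 2.97 ± 1.08 for T22F3.11 (95% interval 0.72 to 5.22, limma's adjusted p = 0.71) and by -0.72 ± 0.74 for adh-1 (95% interval -2.25 to 0.81, limma's adjusted p = 1). Of all genes 0.318% were called in that comparison, whose responses were both in view when the genes were chosen.

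**Figure D3:**
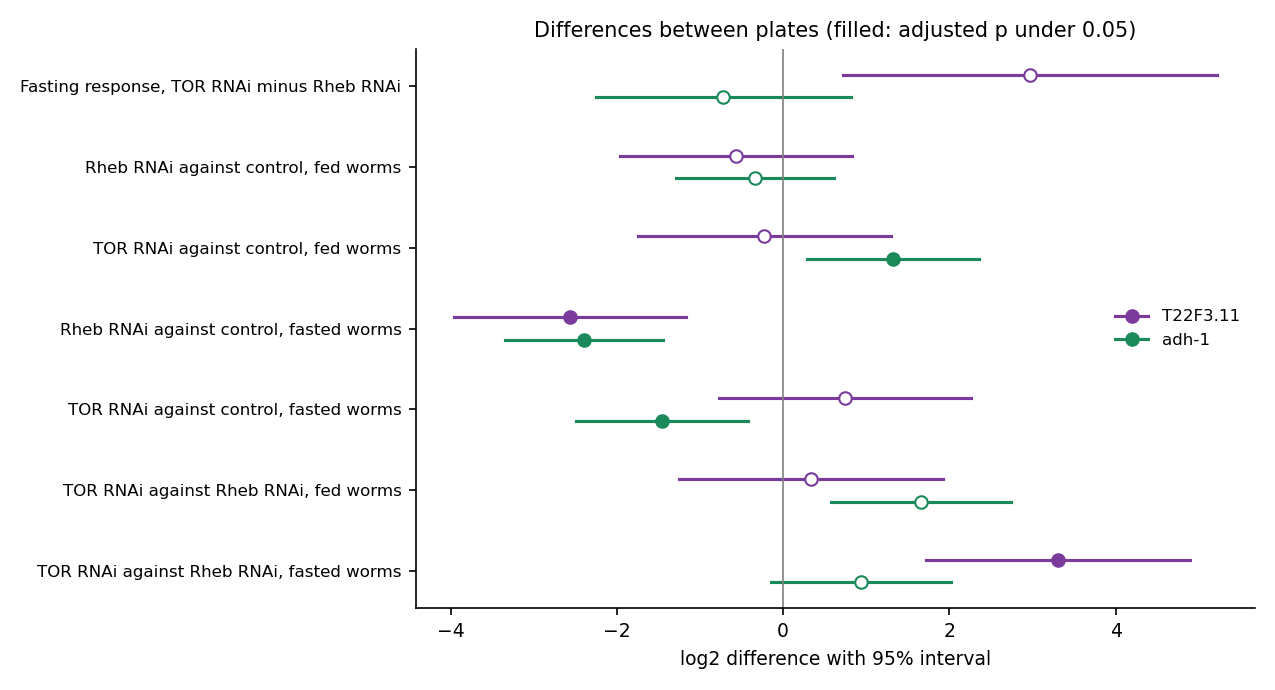
Log2 differences between RNAi plates with 95% intervals for T22F3.11 and adh-1 in the 7 comparisons tested; filled points have limma's adjusted p under 0.05. Both genes are lower in fasted Rheb RNAi worms than in fasted control worms. Fasted adh-1 on TOR RNAi against control lies at -1.46, while T22F3.11 lies at 0.74 with an interval across 0. Comparisons with control plates share the arrays by which the genes were chosen, and the rises on both knockdown plates were in view in that choice.

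The genes also differed in where their arrays spread. T22F3.11 had an SD of 1.46 in fasted control and 1.79 in fasted Rheb RNAi worms, exceeded by 5 and 1 of the 12277 genes, against a median gene's SD of 0.27 in fasted control worms. In fasted TOR RNAi worms its SD was 0.45, exceeded by 1309 genes. adh-1 spread most in fed worms, with SDs of 0.78, 1.04 and 1.17 on control, Rheb and TOR RNAi, exceeded by 263, 137 and 28 genes. Its fasted SDs were 0.29, 0.65 and 0.16, and 5652 genes had a larger one in fasted control worms.

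The uneven fasted T22F3.11 level was common to its probe sets. Their deviations from the group means correlated with r = 0.97 over the 12 fasted arrays, which share the same labelled RNA, and with r = -0.03 over the 12 fed arrays, where the signal is dim. Deviations of T22F3.11 and adh-1 correlated with r = 0.57 over the fasted and -0.38 over the fed arrays, which also share their RNA. Rheb fasted replicate 3, with the lowest fasted T22F3.11, had the third highest 3′ to middle ratio of the housekeeping control probe sets, a mean log2 ratio of 1.29 in a range of 0.71 to 1.52. Its part in the T22F3.11 level was not tested beyond leaving that array out, as given above.

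The genes whose log2 levels followed T22F3.11 most closely over the 24 arrays were C35C5.8 (r = 0.94), best-1, which encodes a bestrophin-type channel protein (0.94), C34C6.3 (0.93), F46C5.1 (0.93) and C06G3.3 (0.93). These correlations describe arrays in 6 groups and owe much to the step between fed and fasted worms. The fasted minus fed differences on control, Rheb and TOR RNAi were 3.46, 1.79 and 3.58 for C35C5.8 and 3.43, 1.78 and 3.25 for best-1. F46C5.1 showed 3.92, 1.77 and 3.96, and C06G3.3 4.02, 1.92 and 3.14. As in T22F3.11, the Rheb RNAi value of each was the lowest of its 3, which their choice by correlation favours. Among the genes that followed adh-1 it was also the lowest for far-7 and hsp-12.6, but not for aqp-1, acs-2 or F41C3.1.

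adh-1 was followed most closely by aqp-1, an aquaporin-family channel gene (r = 0.97), far-7, of the fatty acid and retinol binding proteins (0.94), acs-2 (0.94), F41C3.1 (0.93) and hsp-12.6, a small heat shock protein gene (0.91). aqp-1 showed fasted minus fed differences of 4.89, 3.18 and 2.51 on control, Rheb and TOR RNAi, and acs-2 6.78, 2.90 and 2.69. Those of far-7 were 4.48, 2.10 and 2.59, and those of hsp-12.6 4.25, 2.02 and 2.09. In this set both knockdown values were below the control value, as was common: all 47 genes above were lower on Rheb RNAi, and only 4 of them were higher on TOR RNAi than on control plates. adh-1 ranked 11 among the genes most like T22F3.11 (r = 0.87), and T22F3.11 ranked 18 among those most like adh-1.

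**Figure D4:**
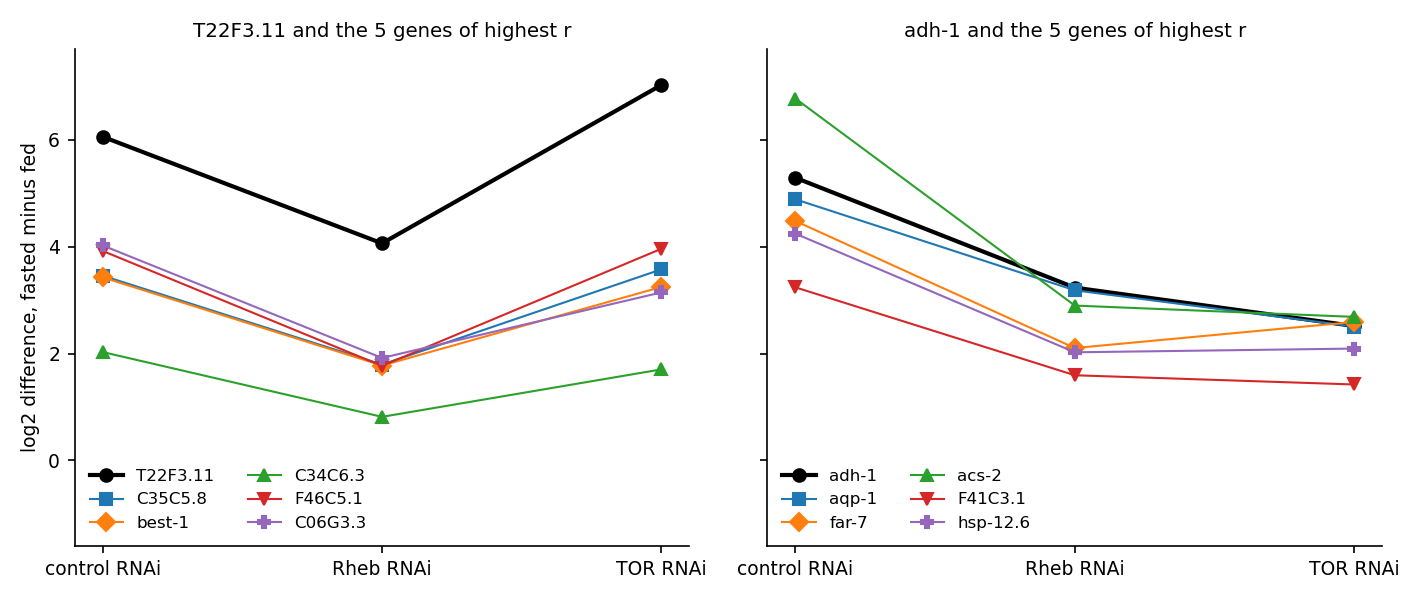
Log2 differences between fasted and fed worms on control, Rheb and TOR RNAi plates for T22F3.11 (left) and adh-1 (right), each with the 5 genes of highest correlation over the 24 arrays. On the left the Rheb RNAi value is the lowest for all 6 genes, and on the right for far-7 and hsp-12.6 only. On the right every gene is lower on both knockdown plates than on control plates.

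The list of alcohol dehydrogenase genes held 2 besides adh-1, of which adh-5 was tested. adh-5 stood at a mean level of 8.78 in fed control worms and differed by 0.09, 0.14 and 0.31 between fasted and fed worms on control, Rheb and TOR RNAi (limma's adjusted p = 0.76, 0.68 and 0.55). sodh-2, the next gene along the chromosome, whose annotated span overlaps adh-1, was too dim to be tested, with group means between 3.06 and 3.60 in all 6 groups. Its probe set thus stayed in the dim range in fasted as in fed worms.

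Aldehyde dehydrogenase genes moved in both directions in fasted control worms. Of 12 tested, alh-13 (1.52) and alh-5 (1.16) rose and alh-9 (-0.66) and alh-6 (-0.47) fell, with a median of 0.15 against 0.04 for all genes, of which 11% were called higher and 7.91% lower. On Rheb RNAi, where 8.67% of all genes were called lower, none rose by limma and 3 fell, alh-10 (-1.04), alh-9 (-0.87) and alh-6 (-0.84), while 1 was higher and 5 were lower at an unadjusted p under 0.05. On TOR RNAi, where 5.16% were called lower, none was called by limma, with 1 higher and 1 lower at an unadjusted p under 0.05. The response of alh-13 was smaller than in control worms on both Rheb (-1.48) and TOR RNAi (-1.79). That of alh-5 was smaller on Rheb RNAi (-1.06). The response less that of control plates was called lower for 3.82% and 1.74% of all genes on Rheb and TOR RNAi. These shares also hold genes that fell further with fasting.

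Among 28 short-chain dehydrogenase genes tested, 5 rose in fasted control worms, among them dhs-8 (1.12), dhs-4 (1.06) and dhs-13 (0.85), and 4 fell, among them dhs-7 (-1.73) and dhs-3 (-1.29). On Rheb RNAi 8 fell, led by dhs-20 (-3.33), dhs-7 (-2.86) and dhs-14 (-2.38), and on TOR RNAi 5 fell, led by dhs-7 (-2.54), dhs-20 (-2.38) and dhs-14 (-2.36). Of all genes 11% rose and 7.91% fell in control worms, 8.67% fell on Rheb and 5.16% on TOR RNAi. None of the list was higher under either knockdown by limma's adjusted p or at an unadjusted p under 0.05. By the adjusted p few of all genes were called higher (3.23% on Rheb and 1.08% on TOR RNAi). The medians were 0.06, -0.25 and 0.05 on the 3 plates.

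Of 10 enzyme genes around pyruvate, lactate and acetate, none fell in fasted control worms, by limma or at an unadjusted p under 0.05. By limma's adjusted p 4 rose, where 11% of all genes were called higher and 7.91% lower. Those that rose include pyk-2, a pyruvate kinase gene (1.0), acs-19, of the acyl-CoA synthetase family (0.90), and pyc-1, a pyruvate carboxylase gene (0.43). Under Rheb and TOR RNAi limma called none in either direction, where 3.23% and 1.08% of all genes were called higher. At an unadjusted p under 0.05, 0 and 1 of the list were higher. The responses of pyk-2 (-1.21) and acs-19 (-0.79) were smaller on Rheb RNAi than on control plates. Of 11 tested genes of SLC17-type anion transporters, slc-17.9 alone rose, by 1.84, 1.27 and 1.15 on control, Rheb and TOR RNAi, where 11%, 3.23% and 1.08% of all genes did. In that list 1 gene fell on control, 3 on Rheb and 1 on TOR RNAi (7.91%, 8.67% and 5.16% of all genes). vglu-3, named for vesicular glutamate transport, fell by 1.93 in control and fell by 2.36 in Rheb RNAi worms, and differed by -0.28 on TOR RNAi (limma's adjusted p = 0.81). Its fed mean on TOR RNAi was already 4.41, near the dim range, against 6.62 in fed control worms.

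Both genes lie on chromosome V, and the genes beside them in RefSeq's WBcel235 annotation were read for a shared difference. Of 20 neighbours, 5 on each side of each gene, 18 had a probe set of their own and 10 were tested. In control worms none rose, with 3 higher at an unadjusted p under 0.05, and F59B1.2 (-0.82) and R13H4.5 (-0.44) fell. By limma's adjusted p, 11%, 3.23% and 1.08% of all genes rose on control, Rheb and TOR RNAi, and 7.91%, 8.67% and 5.16% fell. No share of all genes is given at the unadjusted p. F59B1.2, on the T22F3.11 side, also fell on Rheb (-1.84) and TOR RNAi (-1.38). srh-212, 4 genes from T22F3.11, was called higher on Rheb RNAi (2.36), from a dim fed mean of 2.59 to 4.94. In all groups but fasted Rheb RNAi worms its means were dim, at 2.59 to 3.26. It may thus have passed the filter only through the group in which it was high. T22F3.2, T22F3.8 and T22F3.10, the other tested genes with a T22F3 sequence name as their symbol, were not called by limma with fasting on any plate, nor did any pass an unadjusted p of 0.05.

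**Figure D5:**
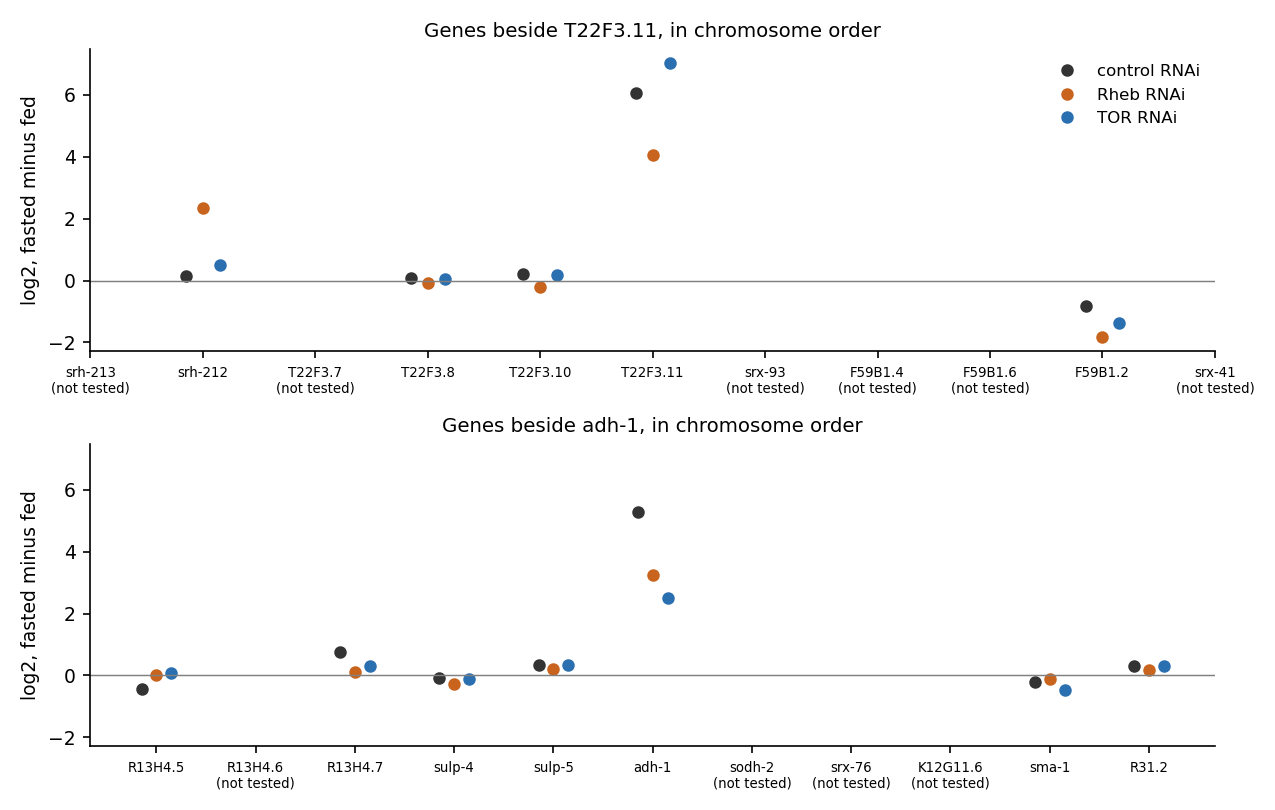
Log2 differences between fasted and fed worms for T22F3.11 (top) and adh-1 (bottom) and the 5 genes on each side in chromosome order, by RNAi plate; genes without points were not tested. T22F3.11 and adh-1 stand above their tested neighbours on every plate, at 6.06 and 5.29 in control worms.

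Tissue markers were read beside both genes, and their part in the levels of T22F3.11 and adh-1 was not tested. Of all genes, 11%, 3.23% and 1.08% were called higher and 7.91%, 8.67% and 5.16% lower with fasting on control, Rheb and TOR RNAi. Of 8 intestine markers none rose and 2 fell in fasted control worms, and 5 fell on each knockdown (medians -0.30, -1.08 and -1.43 on control, Rheb and TOR RNAi), with none higher at an unadjusted p under 0.05 by limma. Their summed intensity was 6458 to 9575 in fed and 4470 to 6227 in fasted control worms, 4996 to 6854 and 3829 to 5244 on Rheb RNAi, and 7351 to 8268 and 4070 to 4453 on TOR RNAi. No intestine marker had a group mean below log2 4.

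Of 8 muscle markers 1 rose with fasting in control worms, the myosin gene myo-3 (1.10), and 1 fell, 4 fell on Rheb RNAi (median -0.97) and 1 on TOR RNAi. Of 8 neuron markers 1 rose in control worms, sbt-1 (0.63), and limma called none on the knockdowns, where 1 was lower on each at an unadjusted p under 0.05. Of 8 epidermis markers 3 fell in control worms and 1 on Rheb RNAi. Of 7 tested embryo markers hnd-1 rose on control (0.86) and Rheb RNAi (0.93). Limma called no germline marker with fasting on any plate, and 1 was lower in control worms at an unadjusted p under 0.05. In fed worms, 7 of 8 muscle markers were higher on Rheb RNAi (median 1.17), and 6 of 8 neuron markers on Rheb RNAi (1.02) and on TOR RNAi (1.19), against 19.2% and 19.9% of all genes called higher. Of 8 germline markers 5 were lower on TOR RNAi and 3 on Rheb RNAi in fed worms (13.4% and 13.9% of all genes).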

How the data were processed

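Labelled RNA (from 5 µg of total RNA per worm sample) was hybridised to Affymetrix C. elegans Genome Arrays. The deposited values are linear probe set intensities made with GCRMA, per the submitters' processing notes, and the series' design text names GeneSpring GX 7.3.1, with no version for GCRMA. GCRMA makes the arrays' distributions alike, so a shift of the whole transcriptome would not show. The log2 of each intensity was taken. The array's 22625 probe sets comprise 77 controls, 20766 of a single gene, 887 of several genes and 895 of no named gene; 20701 symbols were looked up and 0 changed. The brightest probe set stood for a gene, and the 12277 genes above log2 4 on at least 3 arrays were tested, with both genes and all 3 of their probe sets among those that passed; a second fit used 16289 probe sets and gives the values of single probe sets. Linear models of 6 group means over all 24 arrays were fitted in limma 3.58.1 under R 4.3.3 with empirical Bayes variances and Benjamini-Hochberg adjustment over all genes within each of 12 comparisons, and were tested on simulated data. The members and all lists were chosen with earlier results of these data known, so no list is independent evidence. The 3 fasted minus fed differences of the members, and their responses less that of control plates, are given with no test because the choice used them. Named genes are the members, the RNAi targets, the 5 genes most correlated with each member over 24 arrays, and up to 3 called genes of largest change per list; C23G10.11, adh-5 and sodh-2 were named after their values were seen. The alternatives changed the variance model, array weights, scaling, filter, dim values, probe set choice, samples in the fit, arrays of high 3′ to middle ratio and the replicate block, and left out each array in turn; the ratio of intensity gains and the shares under every alternative were added after seeing the data. The labels call the samples biological replicates, and deviations from group means correlated between same-numbered arrays of control and Rheb RNAi (0.451 to 0.663 fed, 0.227 to 0.517 fasted) and between fed and fasted arrays of each plate (0.440 to 0.734), but not between TOR RNAi and control (-0.186 to 0.240 fed, -0.0837 to 0.142 fasted); the numbers thus pair arrays within and between control and Rheb RNAi, and TOR RNAi numbers were kept apart. All columns of the deposited table were used. Sequences of the genes and probes are not analysed here.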

Additional observations from a re-analysis of the deposited data

Results flagged for a closer look

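Among 12 groups of 4 or 5 arrays examined, 1 array lay far from its group: by the second T22F3.11 probe set, 184913_s_at, fed control replicate 1 read 1.93 against 3.29 for the nearest of the other arrays. With 12 groups examined, a gap can be flagged by chance, and all fed values of this probe set are in the dim range.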

How the results depend on the processing

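The fasted minus fed differences kept their direction under all 16 alternatives and without any 1 array. On other scales the shares kept moved to 25% and 18.5% (T22F3.11, Rheb), 196% and 117% (T22F3.11, TOR), 24% and 18.4% (adh-1, Rheb) and 14.6% and 29.2% (adh-1, TOR) by linear folds and by gains in intensity.

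Calls by limma moved as follows, and the cause was not tested. With only the groups compared, T22F3.11 was not called for Rheb RNAi against control in fasted worms (-2.56, limma's adjusted p = 0.067) or TOR against Rheb RNAi in fasted worms (3.30, 0.061), nor adh-1 for TOR RNAi against control in fed worms (1.32, 0.080). Without the 2 arrays whose 3′ to middle ratio was highest, lost calls were TOR against Rheb RNAi in fasted worms for T22F3.11 (3.25, 0.077), and for adh-1 TOR RNAi against control in fed (1.32, 0.056) and fasted worms (-1.55, 0.087). Without the filter these 2 for adh-1 were 1.32 (0.060) and -1.46 (0.050). Fed adh-1 on TOR RNAi against control was also lost with arrays centred on their medians, which shifts that comparison by -0.19 (1.13, 0.067), and with values below 4 set to 4 (1.32, 0.053). Array weights added an adh-1 call for TOR against Rheb RNAi in fed worms (1.69, 0.031).

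With the replicate block shared by all plates, adh-1 was also called for TOR against Rheb RNAi in fed (1.92, limma's adjusted p = 0.0028) and fasted worms (1.20, 0.034), while T22F3.11 on TOR RNAi against control in fed worms turned to 0.16 (0.88). That block joins TOR and Rheb RNAi arrays whose deviations from group means did not correlate by number (r = 2e-04 to 0.19 fed, -0.35 to 0.25 fasted). With TOR numbers apart no call of either gene changed among the comparisons that could be fitted, and comparisons of TOR RNAi with another plate within a feeding state could not be fitted. Genes called rose under the blocks (numbers shared, then TOR apart) from 2322 to 3883 and 4697 for fasting in control worms, 1461 to 2960 and 3822 on Rheb and 766 to 1298 and 1769 on TOR RNAi, and for the responses from 600 to 1417 and 2148 (Rheb minus control), 300 to 719 and 1118 (TOR minus control) and 39 to 106 and 157 (TOR minus Rheb). For Rheb RNAi against control they rose from 4065 to 6487 (fed, TOR apart) and from 2403 to 4289 and 5065 (fasted). With numbers shared they rose for TOR RNAi against control from 4087 to 6655 (fed) and 3089 to 5951 (fasted), and for TOR against Rheb RNAi from 693 to 2933 (fed) and 519 to 3281 (fasted). For TOR against Rheb RNAi array weights gave 82 (response), 1138 (fed) and 1050 (fasted), and the compared groups alone 307 (fed) and 305 (fasted). Without the 2 arrays above the counts were 185 for the TOR minus control response, 1748 for TOR RNAi against control and 220 against Rheb RNAi in fasted worms; without _s_at and _x_at probe sets 24 were called for the TOR minus Rheb response.

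Leaving out 1 array at a time gave these ranges. T22F3.11 lay between -3.23 and -1.87 for fasted Rheb RNAi against control, 2.61 and 3.97 for fasted TOR against Rheb RNAi, -0.72 and 0.051 for fed TOR RNAi against control, and -0.16 and 0.61 for fed TOR against Rheb RNAi. For the response less that of control plates it lay between -2.67 and -1.31 on Rheb and 0.60 and 1.46 on TOR RNAi. adh-1 lay between -2.37 and -1.61 and between -3.40 and -2.25 for these, 0.79 and 1.95 for fed and -1.55 and -1.37 for fasted TOR RNAi against control, and 1.13 and 2.28 for fed TOR against Rheb RNAi. Fed signals of T22F3.11 near the background limit how exactly its ratios are known.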
